A study of Mus musculus with 12 samples.

Results

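Removal of the T24P mutant Foxo1 allele was examined in cells that kept the wild-type allele, by setting the 3 arrays of genotype wt+/mt- against the 3 arrays of genotype wt+/mt+. These 6 of the 12 arrays of the series were chosen by their labelled Foxo1 status, and all 34958 probe sets paired with 1 gene, of 45101 in all, were used. The cells were BL#19, a murine Burkitt lymphoma (BL) line edited with CRISPR/Cas9. In wt+/mt- cells the mutant allele had been knocked out and only wild-type Foxo1 was left, and in wt+/mt+ cells both alleles were intact. The other 6 arrays were used for comparison: 3 of wt-/mt-, with neither allele, and 3 of wt-/mt+, with the mutant allele alone. The alleles are those of the mouse gene, and the labels give no treatment. Whether the 3 arrays of a genotype hold 3 clones, 3 cultures or 1 extract is not stated there, so the p-values reflect variation from array to array only, possibly technical, and a genotype may be represented by 1 clone. The description field calls the samples germinal center B cells, and all other fields name the lymphoma line.

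Foxo1 encodes a forkhead transcription factor that is active in the nucleus. The kinase AKT, activated by phosphoinositide 3-kinase (PI3K), phosphorylates Foxo1, which then binds 14-3-3 proteins and leaves the nucleus, and the T24P substitution removes 1 of the phosphorylated residues. In germinal center B cells Foxo1 is known for its part in the dark zone programme, which includes the chemokine receptor gene Cxcr4, and Foxo1 substitutions that alter AKT sites recur in human B cell lymphomas.

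Levels are log2 values made by robust multi-array averaging (RMA), so differences between arrays are log2 ratios. Each gene was read by its brightest probe set, and 11458 genes bright enough to test were kept. Array medians lay between 6.08 and 6.25. All 7 B cell markers found on the array were above the median, and Ms4a1, which encodes CD20, read 14.75 in wt+/mt- and 14.84 in wt+/mt+ arrays. Counted as above the array median in at least 6 of the 12 arrays were 4 of 12 T cell markers, 4 of 14 myeloid markers and 3 of 10 NK cell markers. The brightest of these was Eomes, a T-box transcription factor of NK and T cells (11.65 in wt+/mt- arrays, 11.07 in wt+/mt+ arrays), followed by Klrd1 (8.32 in wt+/mt-, 7.04 in wt+/mt+). The T cell markers summed to between 9.49 and 9.55 in wt+/mt- arrays and between 9.29 and 9.43 in wt+/mt+ arrays (log2 of the sum), the NK cell markers to between 11.81 and 12.08, against 11.25 to 11.38, and the myeloid markers to between 9.63 and 9.93, against 9.42 to 9.60. Their part in the results was not tested. Of the genes of the T cell receptor complex, Cd3g was near the floor (4.05 in wt+/mt-, 4.16 in wt+/mt+), while Cd3d (6.06 in wt+/mt-, 5.61 in wt+/mt+) and Cd3e (6.56 in wt+/mt-, 6.40 in wt+/mt+) were higher in wt+/mt- without overlap. For Cd247 of that complex the groups overlapped (5.54 in wt+/mt-, 5.37 in wt+/mt+). Among all kept genes, 33.2% did not overlap in one direction or the other, and Cd3d was too dim to be kept. The median standard deviation (SD) over genes was 0.133 in wt+/mt- and 0.0952 in wt+/mt+, against 0.261 in wt-/mt- and 0.111 in wt-/mt+.

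Technical values moved with the genotype. Of the spiked control transcripts, bioC, bioD and cre had levels on the wt+/mt- arrays that were lower by 0.55, 0.60 and 0.23, and dap, lys, phe and thr, spiked into RNA before labelling in the usual protocol, were higher by 1.30, 1.53, 1.23 and 1.32, with no overlap between the 3 and 3 arrays (exact permutation p = 0.1 for each, two-sided, the smallest that 3 against 3 arrays allow, and 0.133 adjusted over the 12 measures). For bioC, bioD and cre all 6 mt- arrays, with or without the wild-type allele, lay below all 6 mt+ arrays, and for lys and the array median they lay above. The labels name no batch, and a processing step shared by the mt- arrays and loss of the mutant allele cannot be told apart here. The actin 3′ minus 5′ difference, a sign of RNA integrity, was 2.17, 1.71 and 1.07 in wt+/mt- arrays 7, 8 and 9, against 1.21, 1.29 and 1.22 in wt+/mt+ arrays (exact permutation p = 0.4). For Gapdh the same difference was 1.03, 0.72 and 0.36 in wt+/mt- arrays, against 0.54, 0.45 and 0.34 in wt+/mt+ arrays (exact permutation p = 0.3). Arrays 7 and 8 thus stood above the others in actin, and the part of these measures in the results below was not tested.

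Foxo1 transcript itself was read at 12.10, 11.92 and 11.59 in wt+/mt- arrays, against 11.56, 11.63 and 11.72 in wt+/mt+ arrays. The groups overlapped, and the change of 0.24 (SE 0.23) was not called (limma adjusted p = 0.736). Without arrays 7 and 8 it was -0.04. Another 3 Foxo1 probe sets gave changes of 0.31, 0.06 and 0.33, none of them called. A transcript level does not check an edit whose position is not given in the sources used here.

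With 1 estimate of spread over all 12 arrays, 21 of 11458 genes (0.183%) were called at an adjusted p under 0.05 (limma, Benjamini-Hochberg), of which 13 were higher in wt+/mt- (0.113% of genes) and 8 lower (0.0698%). With genes above the median in all 12 arrays the split was 1 higher and 3 lower, and with no filter on dim probe sets 83 and 17. After quantile normalization it was 4 higher and 5 lower, and with arrays centred on their median 3 and 3. All 21 adjusted p-values lay close to the threshold, between 0.0393 and 0.049. At an unadjusted p under 0.05 there were 1704 genes, 1211 higher and 493 lower. The shared spread includes the variable wt-/mt- arrays. With the 6 arrays of the comparison alone, 574 genes were called (5.01%), 404 higher (3.53%) and 170 lower (1.48%), and with 1 weight per genotype 950 genes were called (8.29%), 679 higher (5.93%) and 271 lower (2.37%). All 21 genes were called in both of these fits. None of the 21 kept its call in every fit that left out 1 array: each was called in 3 or 4 of 12 such fits, those without a wt-/mt- array and, for part of them, that without array 9. All 21 kept their direction under every alternative in which they were read. When a gene was read as the mean over its probe sets, 8 of the 21 changes became over 1.5 times smaller: Ckm (0.50), Crtc1 (0.23), Atp8b3 (0.17), Surf4 (-0.26), Ugcg (-0.37), Pik3r6 (-0.40), Snhg16 (-0.65) and Stap2 (-0.71). Neo1, Smox, Cyp2b10 and 4930447F24Rik did not pass the filter in that setting, so it gives no value for them. The 3 arrays of 1 genotype lay wholly above the 3 of the other for 3807 genes, 33.2% of those tested, which includes all 21.

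The largest called rise was that of Grk3, a kinase that phosphorylates activated G protein-coupled receptors so that arrestin can bind them. Grk3 read 9.97, 9.23 and 9.20 in wt+/mt- arrays, against 7.02, 7.81 and 7.53 in wt+/mt+ arrays. Every wt+/mt- array was thus above every wt+/mt+ array, and the change of 2.02 (SE 0.26, limma adjusted p = 0.0393) is a 4.05-fold higher level. All 3 Grk3 probe sets were higher, by 2.02, 2.81 and 1.30. Over every alternative setting the change lay between 1.75 and 2.20.

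Mctp1, which encodes a calcium-binding membrane protein with several C2 domains, was the other large rise. It read 7.76, 7.77 and 7.27 in wt+/mt- arrays, against 5.67, 5.75 and 5.65 in wt+/mt+ arrays. The change was 1.91 (SE 0.26, limma adjusted p = 0.0393), or 3.77-fold, and was 1.59 without arrays 7 and 8. All 6 mt+ arrays were below their median for Mctp1, so that it passed the filter on dim probe sets through the mt- arrays alone, where it is high. The same is true of 4 other called rises, 1700003E16Rik, 4930447F24Rik, Cyp2b10 and Pitx3, so their place among the genes tested depends on the change itself. With no filter on dim probe sets all 13 rises and all 8 falls were still called.

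The remaining 11 called rises were small, between 0.58 and 0.89, and all at low levels. Ckm, the creatine kinase of muscle, read 7.33, 7.29 and 7.44 in wt+/mt- arrays, against 6.41, 6.45 and 6.54 in wt+/mt+ arrays (change 0.89, SE 0.14, limma adjusted p = 0.0393). Smox, the oxidase that turns spermine into spermidine, read 7.20, 7.15 and 6.79 in wt+/mt- arrays, against 6.09, 6.35 and 6.34 in wt+/mt+ arrays (0.79, SE 0.12). Crtc1, a coactivator of CREB, read 7.91, 7.91 and 7.97 in wt+/mt- arrays, against 7.16, 7.37 and 7.42 in wt+/mt+ arrays (0.62, SE 0.10). The groups did not overlap for any of them. Several of the others are known from tissues other than lymphocytes: Cyp2b10 (0.72), a drug-metabolising cytochrome P450 of liver; Pitx3 (0.71), a homeobox factor of lens and dopaminergic neurons; Cabp2 (0.67), a calcium-binding protein of retina and inner ear; and Aanat (0.63), an enzyme of melatonin synthesis. Sgsm2 (0.66) encodes a regulator of Rab GTPases and Atp8b3 (0.58) a phospholipid-transporting ATPase. The 2 remaining genes, 1700003E16Rik (0.87) and 4930447F24Rik (0.87), carry no functional name. The other probe sets of Cyp2b10 were dim and gave -0.06 and -0.17, the other set of Atp8b3 gave -0.25, and those of Crtc1 gave 0.17 and -0.09. The other set of Ckm, at 6.41 in wt+/mt+ arrays, gave 0.11, and that of Smox, which was dim, gave -0.03. Those of 4930447F24Rik gave 0.21 and 0.61.

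Low level was a common feature of the rises. When the kept genes were divided into 5 groups of equal size by mean level, the median change was 0.15 in the dimmest group, then 0.12, 0.03 and -0.02, and -0.05 in the brightest. All 13 called rises, and 278 of the 404 rises called with the 6 arrays, lay in the 2 dimmest groups. The gradient was present in each array: in the dimmest group the median difference from wt+/mt+ was 0.17, 0.16 and 0.11 in wt+/mt- arrays 7, 8 and 9, and in the brightest group it was -0.07, -0.05 and -0.01. The SD of all values within an array was also lower on the wt+/mt- arrays, by 0.03 (exact permutation p = 0.1). Among the 8 called falls, 2 were in the dimmest group, 4 in the next and 2 in the next to brightest. The part of this gradient in the small rises was not tested.

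**Figure D1:**
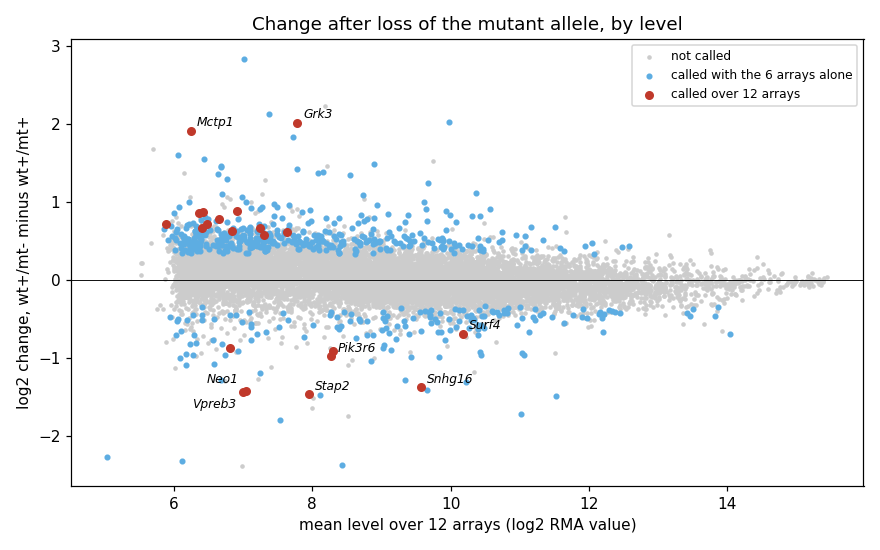
Each point is 1 of 11458 kept genes, with its mean log2 RMA level over 12 arrays on the x axis and its log2 change, wt+/mt- minus wt+/mt+, on the y axis. Red points are the 21 genes called over 12 arrays and blue points those called with the 6 arrays alone. All 13 red rises lie at a mean level under 8.35, while Snhg16 and Surf4 are falls at brighter levels.

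The 8 called falls were larger on the whole than the rises, between -1.46 and -0.68. Stap2, an adaptor with PH and SH2 domains that acts in cytokine and kinase signalling, had the largest. It read 7.53, 7.55 and 7.32 in wt+/mt- arrays, against 8.55, 9.19 and 9.03 in wt+/mt+ arrays. The change was -1.46 (SE 0.20, limma adjusted p = 0.0393), which is 2.75-fold lower. A second, dimmer Stap2 probe set gave 0.03.

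Vpreb3, whose product associates with immunoglobulin chains in the endoplasmic reticulum of B lineage cells, read 6.63, 6.62 and 6.47 in wt+/mt- arrays, against 7.86, 8.10 and 8.03 in wt+/mt+ arrays. The groups were more than 1 unit apart at their closest, and Vpreb3 fell by 1.43 on the log2 scale (SE 0.21, limma adjusted p = 0.0393), or 2.69-fold. Snhg16, a long noncoding RNA that hosts small nucleolar RNAs, was the brightest of the larger falls, at 8.82, 9.28 and 9.22 in wt+/mt- arrays, against 10.44, 10.45 and 10.55 in wt+/mt+ arrays. Its change was -1.37 (SE 0.18, limma adjusted p = 0.0393) by 1 probe set, while the other Snhg16 set gave 0.08.

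Among signalling genes, Pik3r6 fell. It encodes the p84/p87 regulatory subunit of the gamma isoform of PI3K. Its level was 7.68, 7.55 and 7.88 in wt+/mt- arrays, against 8.94, 8.51 and 8.57 in wt+/mt+ arrays (-0.97, SE 0.14, limma adjusted p = 0.0393). A second, much dimmer Pik3r6 set gave 0.16. Ugcg, the synthase of glucosylceramide, the first step towards glycosphingolipids, read 7.81, 7.86 and 8.07 in wt+/mt- arrays, against 9.04, 8.74 and 8.69 in wt+/mt+ arrays (-0.91, SE 0.13). The other Ugcg probe sets gave -0.39, -0.23 and 0.06. Sh3bp1 read 6.77, 6.45 and 6.56 in wt+/mt- arrays, against 7.38, 7.40 and 7.62 in wt+/mt+ arrays (-0.87, SE 0.14).

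Probe sets disagreed in several of the falls, among them Stap2, Snhg16 and Pik3r6 above. Neo1, the netrin and repulsive guidance molecule receptor neogenin, read 6.43, 6.58 and 6.37 in wt+/mt- arrays, against 8.48, 7.65 and 7.48 in wt+/mt+ arrays (-1.41, SE 0.22, limma adjusted p = 0.0416), but its other 4 sets gave between -0.25 and 0.54. Surf4, a cargo receptor of the secretory pathway, read 9.62, 9.86 and 9.83 in wt+/mt- arrays, against 10.51, 10.38 and 10.48 in wt+/mt+ arrays (-0.68, SE 0.11, limma adjusted p = 0.049). A second bright Surf4 set gave -0.43 and the other 3 gave -0.15, -0.05 and -0.0018, so the calls of Neo1 and Surf4 are each that of 1 probe set.

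**Figure D2:**
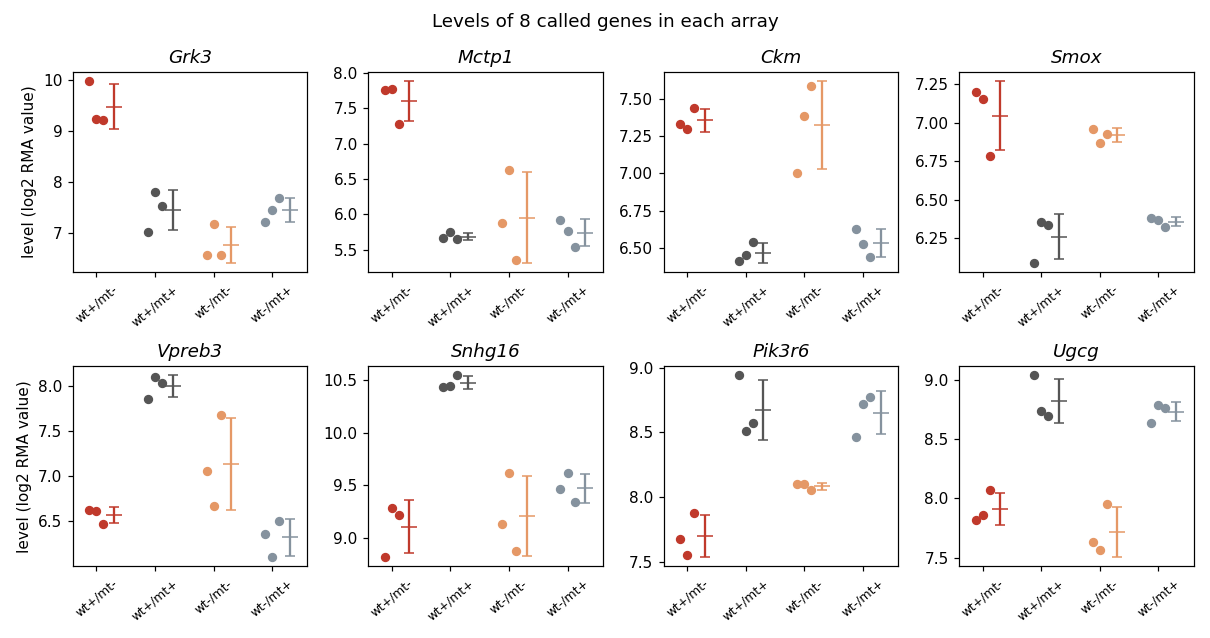
Log2 RMA levels of 8 called genes in each of the 12 arrays, with genotype on the x axis, 1 point per array, and the mean ± SD of 3 arrays beside the points. Grk3 and Mctp1 are high in wt+/mt- arrays alone, Ckm, Smox and Ugcg differ in the same direction in both mt- genotypes, and Vpreb3 and Snhg16 are lower in wt+/mt-, wt-/mt- and wt-/mt+ than in wt+/mt+ arrays.

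Larger differences existed that the 12-array fit did not call. Of genes without overlap and with an unadjusted p under 0.05, Hhat, the acyltransferase of hedgehog proteins, had the largest fall. It read 7.73, 6.64 and 7.98 in wt+/mt- arrays, against 9.86, 9.91 and 9.69 in wt+/mt+ arrays (-2.37, SE 0.58, limma adjusted p = 0.104, and 0.0195 with the 6 arrays). The other, dimmer Hhat probe set gave 0.05. Gcsam, a germinal center protein that restrains lymphocyte motility, read 4.09, 4.22 and 4.27 in wt+/mt- arrays, against 6.06, 6.67 and 6.65 in wt+/mt+ arrays (-2.27, SE 0.52, limma adjusted p = 0.0947, and 0.00167 with the 6 arrays). The level of Gcsam in wt+/mt- arrays is close to the lowest of the data set, 3.09, and both of its probe sets were lower. Gcsam passed the filter on dim probe sets through mt+ arrays alone, 2 of wt+/mt+ and 1 of wt-/mt+. Its place among the genes tested thus depends on the change itself.

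The same held for 2 further genes. Pvr, which encodes the adhesion molecule and immune receptor ligand CD155, read 6.48, 6.76 and 6.36 in wt+/mt- arrays, against 8.44, 8.21 and 8.31 in wt+/mt+ arrays (-1.79, SE 0.63, limma adjusted p = 0.213, and 0.00152 with the 6 arrays). Its other probe sets gave between 0.06 and 0.32. Wfdc21, a small secreted protein with a WAP domain, was bright, at 11.18, 10.91 and 11.26 in wt+/mt- arrays, against 12.94, 12.82 and 12.70 in wt+/mt+ arrays (-1.71, SE 0.60, limma adjusted p = 0.21, and 0.00152 with the 6 arrays). Hhat, Pvr and Wfdc21 varied widely among the wt-/mt- arrays (SD 1.24, 1.76 and 1.65), and Gcsam among the wt-/mt+ arrays (SD 1.40).

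Small differences were seen in part of the genes known as FOXO targets. Of 39 kept canonical FOXO target genes, 0 were called over 12 arrays, and with the 6 arrays 4 were lower and 0 higher, where 1.48% of all kept genes were lower and 3.53% higher. Their median change was -0.03, beside 0.04 over all kept genes. Those 4 were Trp53inp1, an autophagy and p53-response protein (-0.55, adjusted p = 0.0298 with the 6 arrays), Gadd45b, a stress sensor (-0.49, 0.0358), Map1lc3b, the autophagosome protein LC3B (-0.47, 0.0407) and Pik3ip1, an inhibitor of PI3K (-0.39, 0.0483), each with limma. Trp53inp1 read 11.88, 11.81 and 12.03 in wt+/mt- arrays, against 12.48, 12.42 and 12.46 in wt+/mt+ arrays. Pik3ip1 read 10.11, 10.24 and 10.31 in wt+/mt- arrays, against 10.55, 10.67 and 10.61 in wt+/mt+ arrays. These are changes of under 0.6 on the log2 scale, in genes that were bright in both genotypes. In the other direction, Irs2, an insulin receptor substrate, was at 10.97, 10.99 and 11.03 in wt+/mt- arrays, against 10.52, 10.74 and 10.62 in wt+/mt+ arrays (0.37, limma adjusted p = 0.482, and 0.0501 with the 6 arrays).

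Of 13 kept Foxo1 target genes of lymphocytes, 0 were called over 12 arrays and 2 were lower with the 6 arrays (1.48% of all kept genes), Pik3ip1 and Cxcr4. Cxcr4, the chemokine receptor that places B cells in the dark zone, read 11.41, 11.44 and 11.72 in wt+/mt- arrays, against 12.00, 12.08 and 12.20 in wt+/mt+ arrays (-0.57, SE 0.42, limma adjusted p = 0.607, and 0.0368 with the 6 arrays). The list's median was -0.27. Btla, an inhibitory receptor, Ehf, an ETS factor, and Bach2, a repressor that delays plasma cell differentiation, had changes of -0.79, -0.65 and -0.59, which neither fit called. Klf2, S1pr1 and Ccr7, genes of lymphocyte homing, had changes of 0.05, 0.27 and 0.35, also without a call.

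Of the B cell receptor and PI3K signalling genes (30 kept), Pik3r6 was called over 12 arrays, beside 0.183% of all kept genes. With the 6 arrays 1 was higher and 2 were lower, Pik3r6 among them, beside 3.53% and 1.48% of all kept genes. With the 6 arrays, Pik3cd, the catalytic subunit p110 delta, was also lower, at 13.87, 13.80 and 13.47 in wt+/mt- arrays, against 14.32, 14.34 and 14.54 in wt+/mt+ arrays (-0.69, SE 0.13, limma adjusted p = 0.0656, and 0.0336 with the 6 arrays). Pik3r2, the regulatory subunit p85 beta, was higher at 9.76, 10.01 and 9.70 in wt+/mt- arrays, against 9.28, 9.23 and 9.21 in wt+/mt+ arrays (0.58, SE 0.16, adjusted p = 0.127, and 0.0323 with the 6 arrays). The median over that list was 0.01.

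For glycolysis, 0 of 20 kept genes were called over 12 arrays, while 4 were higher and 0 lower with the 6 arrays (3.53% and 1.48% of all kept genes): Pfkl, a phosphofructokinase (0.67, limma adjusted p = 0.0464 in that fit), Hk2, a hexokinase (0.52, 0.0469), Slc2a3, the glucose transporter GLUT3 (0.44, 0.0335), and Pkm, pyruvate kinase (0.43, 0.0493). Hk2 read 11.64, 11.74 and 11.43 in wt+/mt- arrays, against 10.92, 11.14 and 11.19 in wt+/mt+ arrays. These genes are bright, unlike the called rises, and the list's median was 0.16. The median difference of the list was 0.27, 0.20 and 0.09 in arrays 7, 8 and 9.

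Of 13 kept germinal center identity genes, 0 were called over 12 arrays and 2 were lower with the 6 arrays, beside 1.48% of all kept genes. Rgs13, which damps chemokine receptor signalling in germinal center B cells, read 10.88, 11.83 and 12.11 in wt+/mt- arrays, against 13.05, 13.10 and 13.12 in wt+/mt+ arrays (-1.48, SE 1.62, limma adjusted p = 0.765, and 0.0365 with the 6 arrays). Its SD among the wt-/mt- arrays, which enters that SE, was 4.57. Elf1, an ETS factor, was the second (-0.42, adjusted p = 0.0377 with the 6 arrays), and its other, dimmer probe set gave 0.03. Bcl6, the master regulator of germinal center B cells, was at 13.45, 13.34 and 13.22 in wt+/mt- arrays, against 13.33, 13.48 and 13.27 in wt+/mt+ arrays, with overlapping groups. A second, dimmer Bcl6 probe set was lower, with means of 8.92 in wt+/mt- and 9.59 in wt+/mt+ arrays. Its change of -0.67 (SE 0.19) was not called (limma adjusted p = 0.113 over all probe sets). Of 11 dark zone genes, Gcsam and Cxcr4 were lower with the 6 arrays (1.48% of all kept genes). Gcsam passed the filter on dim probe sets through mt+ arrays alone, so its part in this count is not independent of that filter. Of 18 light zone and NF-kB genes Egr3 was higher with the 6 arrays (0.72, 0.0438, beside 3.53%). The other, dimmer Egr3 probe set gave -0.32.

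Proliferation genes differed between the wt+/mt- arrays. Of 29 G2/M and 27 S phase genes kept, 0 were called in either direction over 12 arrays or with the 6 arrays. The median difference of the G2/M genes from the wt+/mt+ mean was -0.23 and -0.36 in arrays 7 and 8, but 0.53 in array 9. For the S phase genes it was -0.57, -0.41 and 0.22. Pcna, the DNA polymerase clamp, read 11.83, 12.33 and 13.30 in arrays 7, 8 and 9, against 13.24, 12.80 and 12.74 in wt+/mt+ arrays. Cdk1, the mitotic kinase, read 10.01, 10.25 and 11.48 in wt+/mt- arrays, against 11.09, 10.72 and 10.67 in wt+/mt+ arrays. Arrays 7 and 8, low in these genes, are also those with the high actin difference.

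**Figure D3:**
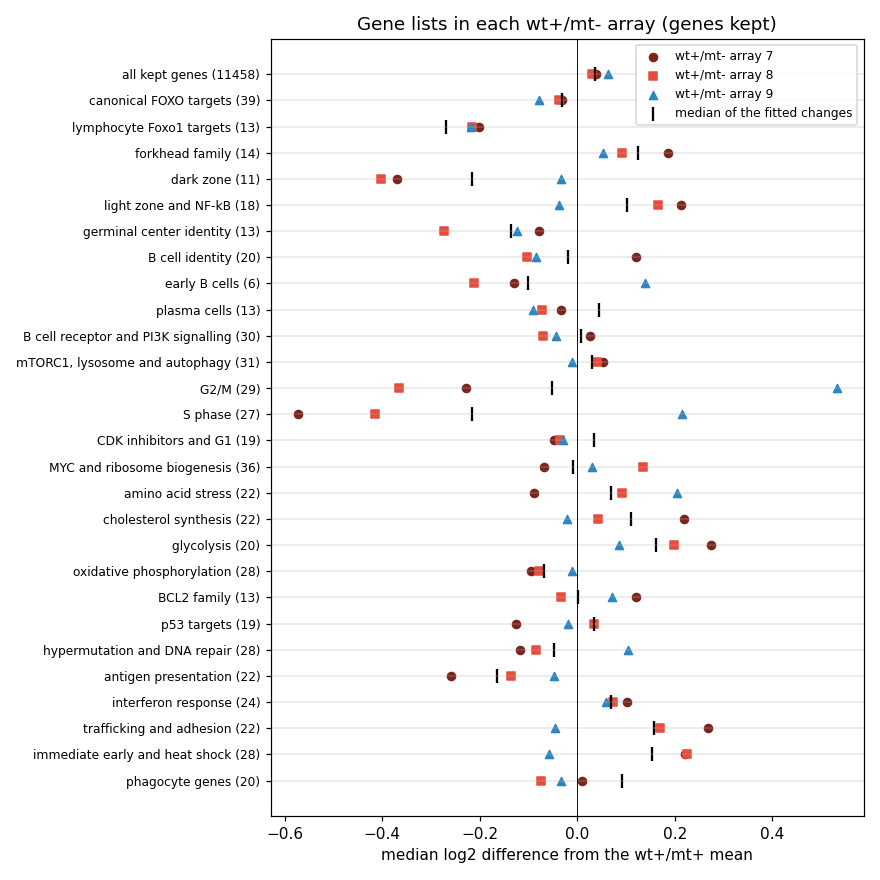
For each gene list, with the number of kept genes in brackets, the x axis gives the median log2 difference of each wt+/mt- array from the mean of the 3 wt+/mt+ arrays, and the black bar the median of the fitted changes. G2/M and S phase genes lie below 0 in arrays 7 and 8 and above 0 in array 9, while lymphocyte Foxo1 targets lie near -0.2 in all 3 arrays.

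Other lists held few calls with the 6 arrays, by which 3.53% of all kept genes were higher and 1.48% lower. Among mTORC1, lysosome and autophagy genes (31 kept), Rptor, the raptor subunit of mTORC1 (0.50), and Atp6v1h, a subunit of the vacuolar proton pump (0.42), were higher and Map1lc3b lower. Atp6v1h was tight, at 11.98, 12.00 and 12.05 in wt+/mt- arrays, against 11.60, 11.59 and 11.60 in wt+/mt+ arrays (limma adjusted p = 0.0784, and 0.0336 with the 6 arrays). Its other, dimmer probe sets gave -0.08 and -0.14. Among immediate early and heat shock genes (28 kept) Fosl2 (0.90), Egr3 (0.72) and Nr4a2 (0.54), all activation-induced transcription factors, were higher. For Egr3 this holds for the brighter probe set, and the other gave -0.32. Of the trafficking and adhesion genes (22 kept) Grk3 was called, and with the 6 arrays the adhesion receptor gene Cd44 was higher (0.57) and 1 gene was lower. The median difference of that list was 0.27, 0.17 and -0.05 in arrays 7, 8 and 9. Of the early B cell genes (6 kept) Vpreb3 fell, while Igll1, a surrogate light chain gene, was higher with the 6 arrays (0.49, 0.0368). B cell identity, plasma cell, MYC and ribosome biogenesis, amino acid stress, cholesterol synthesis and BCL2 family genes had 0 calls in both fits.

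The same allele was also lost in cells without wild-type Foxo1. That comparison, wt-/mt- minus wt-/mt+, shares no array with the one above, and it called 2386 genes (20.8%), 1117 higher (9.75%) and 1269 lower (11.1%). Across the 11458 kept genes the changes of the 2 comparisons had a Pearson correlation of 0.359 and the same sign in 62.3%; genes are not independent replicates, and both comparisons set mt- against mt+ arrays, which differed in the spiked transcripts. Of the 2386 genes called without wild-type Foxo1, 2263 had a smaller change with it present, with a median size of 0.185 in wt+/mt- against wt+/mt+ and 0.653 in wt-/mt- against wt-/mt+. Since these genes were chosen on the second comparison, the size there is larger by choice. Of the 574 genes called with the 6 arrays, 484 (84.3%) had the same sign in cells without wild-type Foxo1, and of the 21 called over 12 arrays, 17. Among these 17, Mctp1, 1700003E16Rik, 4930447F24Rik, Cyp2b10 and Pitx3 passed the filter on dim probe sets through mt- arrays alone.

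Canonical FOXO targets were among the genes with the smaller change. Without wild-type Foxo1, 17 of 39 were lower and 3 higher after loss of the mutant allele (11.1% and 9.75% of all kept genes). The list's median was -0.53. With wild-type Foxo1 present, 0 of 39 were called (0.183% of all kept genes), and the median was -0.03. Sesn1, a stress-response inhibitor of mTORC1, changed by -1.53 (limma adjusted p = 0.0188) without wild-type Foxo1 and by -0.28 (0.824) with it. For Hbp1, a repressor of cell cycle entry, the changes were -1.16 (0.00305) and 0.07 (0.922), and for Bcl2l11, the pro-apoptotic protein BIM, -1.17 (0.00828) and -0.12 (0.894). Pik3ip1 had -3.20 without wild-type Foxo1 and -0.39 with it, and this difference itself was called (interaction adjusted p = 0.00172). So were those of Trp53inp1 (0.00532), Irs2 (0.019), Bnip3 (0.0333) and Hbp1 (0.0413), 5 of 39 in all, beside 3.14% of all kept genes. For Sesn1 and Bcl2l11 the difference was not called (0.256 and 0.137).

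The forkhead motif GTAAACA, or its reverse complement TGTTTAC, lay in the promoter window (250 bases before to 50 after the start) of 8 of 36 canonical FOXO target genes with a window (22.2%), of 283 of 9289 kept genes (3.05%), and of 0 of 17 called genes with a window. Of the 8 genes, 6 were called lower without wild-type Foxo1, beside 11.1% of all kept genes and 17 of the 39 kept canonical FOXO targets. With wild-type Foxo1 present 0 of the 8 were called, beside 0.183% of all kept genes. The 3 windows below, of genes whose changes without wild-type Foxo1 were the largest of the 6 and chosen after their values were seen, are from RefSeq, build GRCm38.p6, written 5′ to 3′ on the gene's strand with the motif in capitals. A match describes letters in a window, not a bound site. Sesn1 lies at chr10:41810324-41810623 on the plus strand with the motif 22 bases after the start, Hbp1 at chr12:31950196-31950495 on the minus strand with it 149 bases before the start, and Bcl2l11 at chr2:128125788-128126087 on the plus strand with it 227 bases before the start.
Sesn1: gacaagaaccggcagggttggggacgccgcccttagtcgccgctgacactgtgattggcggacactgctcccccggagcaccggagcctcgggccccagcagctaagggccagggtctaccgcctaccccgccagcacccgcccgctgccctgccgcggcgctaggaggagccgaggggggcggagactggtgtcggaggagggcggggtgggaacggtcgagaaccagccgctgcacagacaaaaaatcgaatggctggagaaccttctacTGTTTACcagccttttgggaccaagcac
Hbp1: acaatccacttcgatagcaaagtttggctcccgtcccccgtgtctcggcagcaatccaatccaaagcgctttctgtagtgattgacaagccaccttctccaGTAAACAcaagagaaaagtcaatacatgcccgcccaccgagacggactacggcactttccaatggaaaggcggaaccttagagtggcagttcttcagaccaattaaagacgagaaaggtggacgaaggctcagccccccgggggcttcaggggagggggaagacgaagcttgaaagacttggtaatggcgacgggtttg
Bcl2l11: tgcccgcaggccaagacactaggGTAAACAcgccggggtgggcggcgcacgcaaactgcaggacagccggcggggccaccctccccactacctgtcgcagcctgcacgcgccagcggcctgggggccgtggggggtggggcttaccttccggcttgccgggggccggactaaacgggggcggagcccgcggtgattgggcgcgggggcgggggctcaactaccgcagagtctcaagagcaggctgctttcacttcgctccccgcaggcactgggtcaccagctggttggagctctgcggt

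The difference between the 2 backgrounds was called for 360 genes (3.14%), for 264 of which the change was more positive with wild-type Foxo1 present (2.3%) and for 96 more negative (0.838%). With arrays centred on their median the split was 211 and 138. Over these genes the median size of change was 0.194 with wild-type Foxo1 present and 1.08 without it, both of which enter the test. The largest positive differences were those of Zfyve28, Ehf, Dnaic2, Lct, Cdyl2 and Bach2, and the largest negative ones those of Clec2i, Sash3, Anxa10, Pla2g7, Havcr1 and Ncf4.

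Bach2 read 11.12, 10.76 and 11.38 in wt+/mt- arrays, against 11.79, 11.66 and 11.57 in wt+/mt+ arrays, and 7.92, 8.03 and 5.83 in wt-/mt- arrays, against 11.74, 11.93 and 11.67 in wt-/mt+ arrays. It was thus bright wherever 1 allele was left, and the difference of changes was 3.93 (SE 0.64, limma adjusted p = 0.0102). Ehf showed the same order, at 7.94, 9.16 and 9.08 in wt+/mt- arrays, against 9.05, 9.45 and 9.64 in wt+/mt+ arrays, and 3.91, 3.61 and 4.71 in wt-/mt- arrays, against 9.56, 9.48 and 9.34 in wt-/mt+ arrays (difference 4.73, SE 0.48, adjusted p = 0.00172). Zfyve28, which encodes a FYVE domain protein of endosomes, differed by 4.89 (adjusted p = 0.00564), and Lct, the lactase gene, by 4.18 (0.00172). Their changes with wild-type Foxo1 present were -0.25 and -0.13, not called. Dnaic2, an axonemal dynein chain, changed by -1.40 with wild-type Foxo1 and -5.95 without it (difference 4.55, adjusted p = 0.041).

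In the other direction, Anxa10, an annexin, was higher after mutant allele loss in both backgrounds: 8.39, 8.97 and 9.05 in wt+/mt- arrays, against 6.98, 7.46 and 7.50 in wt+/mt+ arrays, and 14.17, 12.12 and 11.18 in wt-/mt- arrays, against 7.38, 7.17 and 6.29 in wt-/mt+ arrays. Its change of 1.49 with wild-type Foxo1 was called with the 6 arrays (adjusted p = 0.0231) and not over 12 (0.269), and the difference from the 5.54 without it was -4.05 (SE 0.84, limma adjusted p = 0.0286). Havcr1, the receptor TIM-1, had 0.89 with wild-type Foxo1 and 4.47 without it (difference -3.58, adjusted p = 0.00406). Clec2i, a C-type lectin that binds NK receptors, had changes of opposite sign, -0.94 and 3.85 (difference -4.79, adjusted p = 0.00055), as did Sash3, a lymphocyte adaptor (-1.73 and 2.71), Pla2g7, which inactivates platelet-activating factor (-0.76 and 3.13), and Ncf4, the p40 subunit of the phagocyte oxidase (-0.41 and 2.72). None of these 4 was called with wild-type Foxo1 present over 12 arrays, and Sash3 array 7 stood with the wt+/mt+ arrays, at 9.50, while arrays 8 and 9 were at 7.16 and 6.74. Clec2i passed the filter on dim probe sets through the wt-/mt- arrays alone, where it is high. Its -0.94 is a difference between means of 5.02 and 5.96, from arrays that all read Clec2i below their median.

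Cdyl2, a chromodomain protein, had the largest rise of the named genes. It read 10.49, 10.43 and 9.06 in wt+/mt- arrays, against 6.55, 7.48 and 7.46 in wt+/mt+ arrays, and 4.42, 4.98 and 5.24 in wt-/mt- arrays, against 5.43, 4.80 and 7.76 in wt-/mt+ arrays. The change of 2.83 was not called over 12 arrays (SE 0.66, limma adjusted p = 0.0969) and was called with the 6 arrays (0.0262). The difference between backgrounds was 3.95 (SE 0.93, adjusted p = 0.0471).

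Among the 21 called genes, the difference between backgrounds was itself called for 6. Grk3 was 9.47 ± 0.44 in wt+/mt- (SD, n = 3) and 7.45 ± 0.40 in wt+/mt+, but 6.77 ± 0.35 in wt-/mt- and 7.45 ± 0.24 in wt-/mt+, a difference of changes of 2.70 (SE 0.37, limma adjusted p = 0.00424). Mctp1 (1.70, adjusted p = 0.0356) and Sgsm2 (0.72, 0.0236) likewise rose with wild-type Foxo1 present, and had changes of 0.21 and -0.06 without it, which were not called. Vpreb3 fell with wild-type Foxo1 and rose by 0.81 without it (difference -2.24, adjusted p = 0.00399). Snhg16 (-1.10, 0.0445) and Sh3bp1 (-0.88, 0.0389) fell with it and had changes of -0.26 and 0.01 without it.

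For the other 15 the difference was not called. Of these, 14 were also called without wild-type Foxo1 (20.8% of all kept genes) and in the same direction, and Surf4 was not. Among the 14, 1700003E16Rik, 4930447F24Rik, Cyp2b10 and Pitx3 passed the filter on dim probe sets through mt- arrays alone. Their part in this count is thus not independent of that filter. Both comparisons set mt- against mt+ arrays, between which bioC, bioD, cre and lys also did not overlap. Ugcg changed by -0.91 with wild-type Foxo1 and -1.02 without it, Neo1 by -1.41 and -1.23, Ckm by 0.89 and 0.79, and Smox by 0.79 and 0.56. Pik3r6 had -0.97 and -0.57. The difference between backgrounds was smaller than its SE for Ugcg (0.11, SE 0.19), Neo1 (-0.18, SE 0.32) and Ckm (0.10, SE 0.19).

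**Figure D4:**
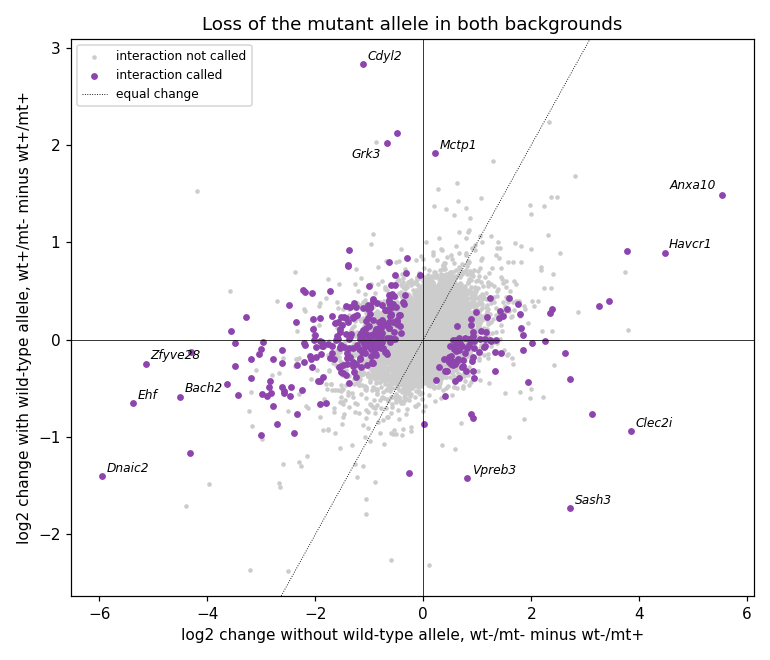
Log2 change after loss of the mutant allele with wild-type Foxo1 present (wt+/mt- minus wt+/mt+, y axis) against that without it (wt-/mt- minus wt-/mt+, x axis), 1 point per kept gene. Purple points are the 360 genes whose 2 changes differed, and the dotted line marks equal changes. Zfyve28, Ehf, Bach2 and Dnaic2 lie far to the left, near -5 on the x axis, and Grk3, Mctp1 and Cdyl2 lie near 2 to 3 on the y axis.

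Loss of the wild-type allele with the mutant allele kept (wt-/mt+ minus wt+/mt+) uses the same wt+/mt+ arrays, so only its values are set beside those above. It called 0 genes (0%; limma), with 412 at an unadjusted p under 0.05. Vpreb3 was -1.43 after loss of the mutant allele and -1.67 after loss of the wild-type allele, read at 6.36, 6.10 and 6.51 in wt-/mt+ arrays. Snhg16 was -1.37 and -1.002, Sh3bp1 -0.87 and -0.87, and Stap2 -1.46 and -0.77. In both single-loss genotypes these 4 genes were thus below the wt+/mt+ arrays, whose error the comparisons share. Gcsam was -2.27 and -1.41, with wt-/mt+ arrays at 6.65, 4.41 and 4.07, of which 1 was at the wt+/mt+ level. Grk3 and Mctp1, in contrast, were -0.0045 and 0.05 after loss of the wild-type allele.

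Setting the single losses directly against each other, wt+/mt- minus wt-/mt+, called 10 genes (0.0873%; limma). The 6 higher in wt+/mt- (0.0524%) were Grk3 (2.02), Mctp1 (1.86), 4930447F24Rik (0.82), Slc7a4, a member of the cationic amino acid transporter family (0.75), Cyp2b10 (0.72) and Atp8b3 (0.65), with adjusted p between 0.0403 and 0.0444. The 4 lower (0.0349%) were Mgmt, the DNA repair methyltransferase (-1.38), Tmem243, a membrane protein (-1.27), Pik3r6 (-0.95) and Cdc14a, a phosphatase (-0.63). Mgmt read 8.96, 9.46 and 9.30 in wt+/mt- arrays, against 10.64, 10.86 and 10.36 in wt-/mt+ arrays, and was at 9.71, 9.95 and 10.12 in wt+/mt+ arrays between them. Tmem243 was at 10.59, 10.67 and 11.10 in wt+/mt- arrays, against 12.13, 12.20 and 11.86 in wt-/mt+ arrays. Both were lowest in wt-/mt- arrays, Mgmt at 7.80, 7.86 and 7.86 and Tmem243 at 9.98, 9.77 and 9.24. For Vpreb3 the direct difference was 0.25 (SE 0.21, adjusted p = 0.606) and for Sh3bp1 0.00011 (SE 0.14, adjusted p = 1.00).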

How the data were processed

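Each of 4 genotypes had 3 Affymetrix arrays, 12 in all, hybridised with biotin-labelled cDNA made by a 3′ IVT kit from Qiagen-purified total RNA, per the labels' protocols. The authors deposited 1 log2 expression value per probe set and array. Per the submitters' processing notes these come from RMA, whose version is not given in the sources used here. That the logarithm is to base 2 rests on RMA's usual output and on the values, which span 3.09 to 15.57. RMA removes most of a shift shared by all genes of an array. Precision is limited by the number of arrays.

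Probe sets were named through the platform annotation: 34958 of 45101 had 1 gene, 932 several and 9211 none in the table, and the first covered 18194 genes, with 162 symbols kept as listed. The brightest probe set stood for a gene, kept when above the array median in at least 3 arrays. The test was limma 3.58.1, run in R 4.3.3 (1 mean per genotype over 12 arrays, eBayes, Benjamini-Hochberg adjusted p under 0.05). The fit was tested on simulated data. SE is limma's and SD is over 3 arrays. No 2 arrays were identical, and nothing pairs them, since titles number them 1 to 12.

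Named genes were Foxo1, up to 12 called genes each way without overlap by size (the next by size with an unadjusted p under 0.05 filling up, named as not called), up to 4 called members of each list, and up to 6 genes each way for the interaction and for the single losses. The members and the 33 gene lists (781 entries, 718 on the array) were chosen with earlier results of these data known, and no set test was run. Genes called with the 6 arrays alone and members given by value were named beside them. Alternatives were the 6 arrays alone, weights per genotype, other scalings, filters and probe set rules, leaving out arrays, and an actin covariate.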

Additional observations from a re-analysis of the deposited data

Results flagged for a closer look

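Loss of the mutant allele gave different changes with and without wild-type Foxo1 for 360 genes, by the interaction term of the 12-array fit (limma). Of 22 named genes with a called difference, 10 kept the call in each of the 12 fits that left out 1 array: Grk3 (2.70), Vpreb3 (-2.24), Bach2 (3.93), Ehf (4.73), Lct (4.18), Zfyve28 (4.89), Mgmt (2.10), Cdc14a (0.99), Clec2i (-4.79) and Havcr1 (-3.58). The other 12 lost it in between 4 and 9 of these fits: Pla2g7 (-3.89), Tmem243 (1.44), Cdyl2 (3.95), Sash3 (-4.45), Foxo1 (1.71), Sgsm2 (0.72), Mctp1 (1.70), Anxa10 (-4.05), Sh3bp1 (-0.88), Dnaic2 (4.55), Ncf4 (-3.13) and Snhg16 (-1.10). Positive values mean a more positive change with wild-type Foxo1 present. Clec2i passed the filter on dim probe sets through the wt-/mt- arrays alone.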

How the results depend on the processing

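No named gene with a called change reversed its direction under any alternative in which it was read. The count of genes called after mutant allele loss with wild-type Foxo1, 21 by limma, was 574 with the 6 arrays alone, 950 with 1 weight per genotype, 9 after quantile normalization, 6 with arrays centred on their median, 100 without the filter on dim probe sets, 4 with genes above the median in all 12 arrays, 183 over every probe set, 0 with the mean over a gene's probe sets, 2 without arrays 7 and 8, 0 with actin as a covariate and 33 with a trended, robust eBayes. Without 1 array each it lay between 0 and 151: 0 without arrays 1, 2, 3, 5, 6 or 7, 1 without array 4 or 8, and 98 to 151 without a wt-/mt- array. Chosen after seeing the data, leaving out the 3 wt-/mt- arrays gave 962, and arrays 7 and 8 as well 94. For the loss without wild-type Foxo1 the count was 923 with weights, 4366 over every probe set and between 1118 and 2987 without 1 array each. The interaction count was 56 without arrays 7 and 8, 166 with the actin covariate and between 118 and 994 without 1 array each. For the single losses it was 393 with their 6 arrays alone, 835 with weights, 21 with centred arrays, 22 over every probe set, 1 with the mean over probe sets, 2 without arrays 7 and 8, 0 with the actin covariate, between 0 and 232 without 1 array each, and, chosen after seeing the data, 1191 without the wt-/mt- arrays and 62 without arrays 7 and 8 as well. Leaving out arrays leaves fewer to estimate the spread; the cause of the other shifts was not tested. The 2 settings with a count of 0 had 1458 (mean over probe sets) and 1092 (actin covariate) genes at an unadjusted p under 0.05. No paired analysis was possible because the arrays are numbered 1 to 12 and no number is shared between genotypes. Of the 13 rises, 5 were below the array median on all 6 mt+ arrays.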

Other observations

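Other gene groups held single differences that were called with the 6 arrays (limma) and not over 12. With the 6 arrays 3.53% of all kept genes were higher and 1.48% lower. H2-Ob, a chaperone of MHC class II loading, was at 10.56, 10.70 and 10.97 in wt+/mt- arrays, against 11.32, 11.35 and 11.30 in wt+/mt+ arrays (-0.58, adjusted p = 0.0377), 1 of 22 antigen presentation genes. Without wild-type Foxo1 its change was -2.89, and that difference between backgrounds was called (adjusted p = 0.0153). Among 28 oxidative phosphorylation genes, Ndufa9, a subunit of complex I, was lower (-0.40, 0.0468), and of 24 interferon response genes Isg20, an exonuclease, was lower (-0.46, 0.0408). H2ax, the histone variant of the DNA damage response, was higher, at 10.67, 10.75 and 10.67 in wt+/mt- arrays, against 10.27, 10.19 and 10.09 in wt+/mt+ arrays (0.52, 0.0298). Ccnd1, the cyclin D1 gene, was higher at a low level (0.57, 0.0298), as was Plk3, a stress-responsive kinase (0.59, 0.0298). The other Ccnd1 probe sets gave -0.07 and 0.49.

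Of 20 phagocyte genes, 2 were higher and 2 lower with the 6 arrays, by which 3.53% of all kept genes were higher and 1.48% lower. Ncf1, the p47 subunit of the phagocyte oxidase, was at 10.52, 10.65 and 10.96 in wt+/mt- arrays, against 9.71, 10.12 and 9.63 in wt+/mt+ arrays (0.89, adjusted p = 0.0336). Anxa1, annexin A1, was lower (-0.53, 0.0302), as was Pla2g7. Of 14 forkhead family genes kept, 0 were called in either fit. Foxo3, at 9.40, 9.13 and 8.80 in wt+/mt- arrays, against 9.00, 9.15 and 9.12 in wt+/mt+ arrays, had a change of 0.02, Foxo4 of 0.08 and Foxp1, a forkhead repressor of B cells, of -0.47 (adjusted p = 0.22).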
